A study of Mus musculus with 6 samples.

Results

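Resident macrophages of the heart are represented here by 10 marker genes, C1qa, C1qb, C1qc, Cd68, Lyz2, Csf1r, Mrc1, Cx3cr1, Fcgr3 and Adgre1, which were taken by name from the 43629 genes of the count files. Each symbol matched 1 Ensembl gene, and all 10 were among the 15470 genes tested. RNA-Seq libraries were made from primary cardiomyocytes of the heart ventricles of CD-1 mouse embryos at embryonic day 13.5. Cells were transfected with 12 nM negative siRNA or with a 12 nM pool of siRNAs against DNMT1, the maintenance DNA methyltransferase, and were collected 72 h later, with 3 samples per treatment. Ventricles of each litter were pooled, cells that attached early to uncoated flasks were left behind, and cells were sorted with magnetic beads for VCAM1 before RNA extraction. The titles name DNMT1 siRNA for 3 samples whose treatment tag says DNMT3a siRNA. Dnmt1 had 2760 to 3446 normalized counts with negative siRNA and 666 to 786 with DNMT1 siRNA, and Dnmt3a had 4866 to 5779 and 6365 to 6508.

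Macrophages settle in the embryonic heart from yolk sac and liver precursors, and clear dying cells and debris. Their survival depends on the receptor CSF1R, their identity on the transcription factor PU.1 (Spi1), and they are the main source of C1q, the protein that starts the classical complement pathway. C1q is built from chains A, B and C, the products of C1qa, C1qb and C1qc. CD68 and lysozyme 2 (Lyz2) belong to the lysosome and the granules, MRC1 is the mannose receptor that takes up glycoproteins, CX3CR1 is the receptor of the chemokine fractalkine, FCGR3 binds the constant part of IgG, and ADGRE1 is the F4/80 antigen by which mouse macrophages are recognised.

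RNA of all 10 markers was present at low counts, and negative siRNA replicate 1 stood apart with the lowest level of its group for each of them. C1qc and Lyz2 fell past both limits, an FDR below 0.05 and a fold change above 1.5, in edgeR's quasi-likelihood test, C1qc to 23.6% and Lyz2 to 42.5% of their mean with negative siRNA. These are 2 of 10 markers, where 2.23% of all tested genes were called lower, and the same 2 of 10 by the FDR limit alone, where 5.65% of all genes were lower. Genes called in either direction were 6.49% of all tested genes. No marker was called higher, against 4.26% of all genes, at an adjusted or an unadjusted p, or by DESeq2 or edgeR's exact test. The unadjusted p was below 0.05 with a lower level for 6 of the 10, and for 14.3% of all tested genes. The log2 fold change was negative for 9 of 10 markers, with a median of -1.16 against -0.0049 over all tested genes, and 2 of the 10, Fcgr3 and Adgre1, passed the filter on low counts only through the negative siRNA samples. All 3 DNMT1 siRNA samples lay below all negative siRNA samples for 3 of 10 markers, C1qc, Lyz2 and Adgre1, and for 17.7% of all tested genes. Without negative siRNA replicate 1, 6 of the 10 were called lower, as were 3.1% of all genes tested in that fit. The calls of C1qc and Lyz2 were lost when either of negative siRNA replicates 2 and 3, or any 1 of the DNMT1 siRNA samples, was left out. In the 6 libraries 13739561 to 35896018 reads were counted on genes, and the markers took 229 to 1583 of them. Fewer macrophages and less of these RNAs per macrophage cannot be told apart in such samples.

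The C1q genes lie side by side on chromosome 4 of GRCm38, in the order C1qb, C1qc and C1qa, within 18675 bases on the minus strand. C1qb and C1qc are 3616 bases apart, and C1qc and C1qa 2851. The sequence upstream of the start site is shown for C1qb and C1qc, neighbours in this cluster, and for Lyz2 and Cd68, genes of lysosomal or granule proteins of which Lyz2 passed the test and Cd68 did not. The sequences are from RefSeq (GRCm38.p6), read 5′ to 3′ on the gene's strand, and were cut where the gene starts in the annotation. Capitals mark GAGGAA, the core of the motif bound by PU.1, or its reverse complement TTCCTC.
C1qb, chr4:136886201-136886450, minus strand: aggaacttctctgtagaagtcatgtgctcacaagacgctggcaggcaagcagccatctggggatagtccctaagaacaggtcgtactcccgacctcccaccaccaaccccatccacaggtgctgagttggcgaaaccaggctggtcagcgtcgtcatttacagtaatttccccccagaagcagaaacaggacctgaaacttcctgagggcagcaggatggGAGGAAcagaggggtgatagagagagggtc
C1qc, chr4:136893066-136893164, minus strand: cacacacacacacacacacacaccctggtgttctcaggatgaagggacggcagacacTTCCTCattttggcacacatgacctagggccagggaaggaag
Lyz2, chr10:117282322-117282522, minus strand: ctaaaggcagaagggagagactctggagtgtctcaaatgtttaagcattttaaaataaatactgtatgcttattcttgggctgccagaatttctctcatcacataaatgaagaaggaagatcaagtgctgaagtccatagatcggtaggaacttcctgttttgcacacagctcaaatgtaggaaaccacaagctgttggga
Cd68, chr11:69666171-69666420, minus strand: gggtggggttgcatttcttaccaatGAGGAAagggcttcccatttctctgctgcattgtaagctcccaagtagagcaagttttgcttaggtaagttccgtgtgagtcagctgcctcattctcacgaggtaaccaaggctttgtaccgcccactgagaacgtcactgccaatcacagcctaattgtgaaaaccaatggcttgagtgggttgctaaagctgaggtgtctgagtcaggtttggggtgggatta

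A window of 250 bases before the start was found for 7 of the 10 markers, with 2 start sites for Fcgr3. GAGGAA was found on either strand in windows of 5 of these 7 genes, C1qb, C1qc, Cd68, Fcgr3 and Mrc1, and in 23.3% of the 32851 such windows of all genes. The windows of Lyz2 and Cx3cr1 did not hold these letters. Only these exact letters were searched, and binding of PU.1 to these windows was not tested. TATAAA was in none of the 7 genes' windows and in 12.4% of all windows. The number of CpG sites was 1 in Lyz2, 2 in C1qc, 4 in Cd68 and Cx3cr1, 3 in Mrc1, 3 or 4 in Fcgr3 and 6 in C1qb, against a median of 6 over all windows. Methylation of these windows was not analysed here.

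**Figure D1:**
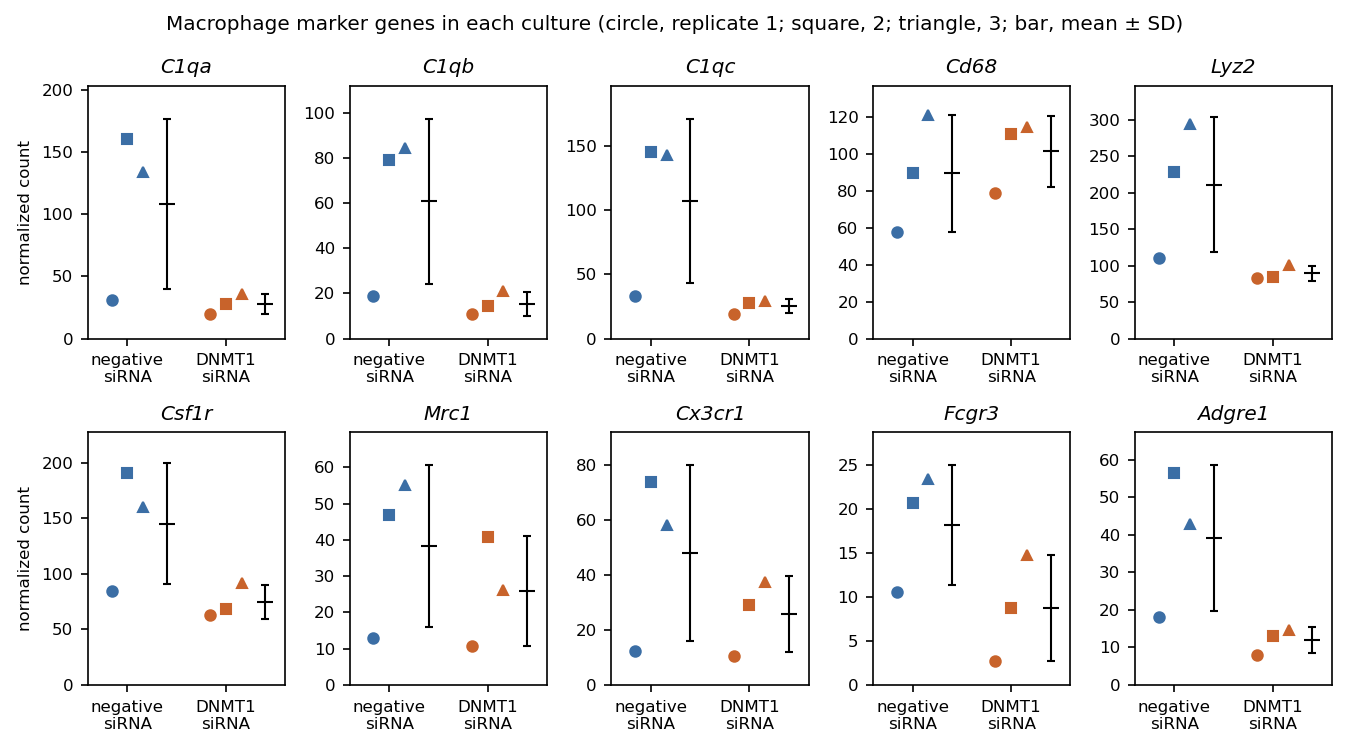
Normalized counts (y axis, linear from 0) of the 10 markers in the 3 negative siRNA samples (blue) and the 3 DNMT1 siRNA samples (orange), with the mean and SD of each treatment in black. Negative siRNA replicate 1 (blue circle) was the lowest negative siRNA sample in all 10 panels, and C1qc, Lyz2 and Adgre1 had no overlap between treatments.

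C1qa (ENSMUSG00000036887, chromosome 4, 136895917 to 136898803), for chain A of C1q, had 30.9, 161 and 134 normalized counts in negative siRNA replicates 1, 2 and 3, and 20.1, 27.7 and 36.0 in those with DNMT1 siRNA. For these values the counts of each library were scaled to the same effective size. Replicate 1 of negative siRNA lay within the range of the DNMT1 siRNA samples, and the other two lay far above it. C1qa did not pass the FDR limit (log2 fold change -1.96, SE 0.589, edgeR adjusted p = 0.0655).

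C1qb (ENSMUSG00000036905, chromosome 4, 136880129 to 136886187), for chain B, had 18.7, 79.3 and 84.8 normalized counts with negative siRNA and 10.7, 14.6 and 21.3 with DNMT1 siRNA. The same negative siRNA sample was again within the range of the DNMT1 siRNA samples. C1qb also missed the limit (log2 fold change -1.97, SE 0.599, edgeR adjusted p = 0.0677).

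C1qc (ENSMUSG00000036896, chromosome 4, 136889804 to 136893065), for chain C, had 33.3, 145 and 143 normalized counts with negative siRNA and 18.8, 27.7 and 29.4 with DNMT1 siRNA. Here all 3 DNMT1 siRNA samples lay below the negative siRNA samples, with a narrow gap to replicate 1 (exact permutation test, two-sided, p = 0.1, the smallest p that 3 against 3 allow). The fall of 107 ± 63.9 to 25.3 ± 5.72 normalized counts (SD, n = 3 each) gave a log2 fold change of -2.08 (SE 0.561, edgeR adjusted p = 0.0469).

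Within each library the C1q genes kept close to 1 ratio. Reads on C1qa were 1.58 to 2.03 times those on C1qb and 0.930 to 1.22 times those on C1qc in the 6 libraries. Together they took 21.3%, 35.2% and 32.4% of the reads on the 10 markers with negative siRNA, and 16.2%, 16.4% and 17.8% with DNMT1 siRNA. The share was thus lowest in the DNMT1 siRNA samples, without overlap, but the gap from 17.8% to 21.3% was narrow. The 10 markers had 298 reads in DNMT1 siRNA replicate 3 and 668 in negative siRNA replicate 1. Counting error of these shares was not computed.

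Lyz2 (ENSMUSG00000069516, chromosome 10, 117277331 to 117282321), for the lysozyme of macrophages, had 111, 229 and 294 normalized counts with negative siRNA and 83.1, 84.5 and 101 with DNMT1 siRNA. The treatments did not overlap, and the DNMT1 siRNA samples were close to each other. From 211 ± 92.8 to 89.7 ± 10.2 normalized counts (SD, n = 3 each), Lyz2 fell by 1.23 on the log2 scale (SE 0.334, edgeR adjusted p = 0.0476). Lyz1 is a near-identical neighbour, so that reads shared by both could not be assigned and the level of Lyz2 is uncertain.

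Cd68 (ENSMUSG00000018774, chromosome 11, 69664213 to 69666153), for a glycoprotein of the lysosomal membrane, had 57.8, 89.6 and 121 normalized counts with negative siRNA and 79.1, 111 and 114 with DNMT1 siRNA. The ranges overlapped almost fully. The log2 fold change of 0.18 had a 95% interval from -0.47 to 0.83 (adjusted p = 0.709 in edgeR's test), which leaves out falls as large as the estimates for C1q genes, Lyz2 and Adgre1. Cd68 was the only one of the 10 markers with a mean above that of negative siRNA.

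All 5 genes of surface receptors had negative log2 fold changes with wide errors, and none passed the limits. Csf1r (ENSMUSG00000024621, chromosome 18, 61100598 to 61132149) had 84.6, 190 and 160 normalized counts with negative siRNA and 63.0, 68.5 and 91.6 with DNMT1 siRNA. Only DNMT1 siRNA replicate 3 reached above negative siRNA replicate 1, and the log2 fold change was -0.96 (SE 0.310, edgeR adjusted p = 0.0796). Hmgxb3 overlaps Csf1r on the other strand, and with the strand setting of the counts not given in the sources used here, reads of both genes in the shared stretch cannot be told apart.

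Adgre1 (ENSMUSG00000004730, chromosome 17, 57358691 to 57483527) had 18.1, 56.5 and 42.8 normalized counts with negative siRNA and 8.05, 13.1 and 14.7 with DNMT1 siRNA. There was no overlap between the treatments (exact permutation test, p = 0.1). Its log2 fold change of -1.71 (SE 0.492) did not pass the FDR limit, with an edgeR adjusted p = 0.0576.

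Fcgr3 (ENSMUSG00000059498, chromosome 1, 171051174 to 171064935) had the fewest reads of the 10, with 18, 30 and 30 reads in the negative siRNA libraries and 2, 6 and 9 in the smaller DNMT1 siRNA libraries. As normalized counts these were 10.5, 20.7 and 23.3, and 2.68, 8.75 and 14.7. Negative siRNA replicate 1 lay between DNMT1 siRNA replicates 2 and 3. For Fcgr3 the log2 fold change was -1.08, with a 95% interval from -2.35 to 0.19.

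Mrc1 (ENSMUSG00000026712, chromosome 2, 14229392 to 14332057) had 12.8, 46.9 and 55.2 normalized counts with negative siRNA and 10.7, 40.8 and 26.2 with DNMT1 siRNA. Samples of both treatments were at the bottom of the range. Its log2 fold change was -0.56, with a 95% interval from -1.94 to 0.82.

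Cx3cr1 (ENSMUSG00000052336, chromosome 9, 119901616 to 120069879) had 12.3, 73.8 and 58.3 normalized counts with negative siRNA and 10.7, 29.2 and 37.6 with DNMT1 siRNA. Replicate 1 of each treatment was far below the other two. At -0.90, the log2 fold change of Cx3cr1 had a 95% interval from -2.42 to 0.61. The annotated span of Cx3cr1 covers 5 other protein-coding genes, Wdr48, Gorasp1, Ttc21a, Csrnp1 and Xirp1, which makes its count less certain.

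**Figure D2:**
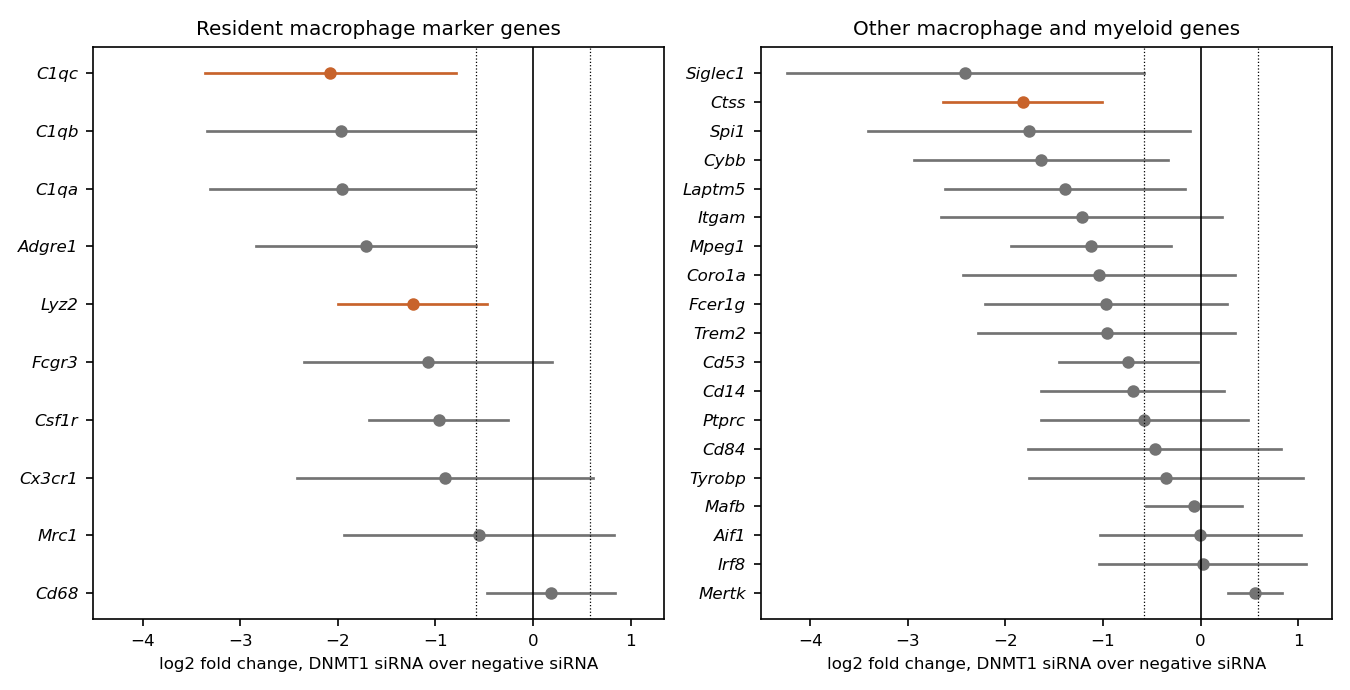
Log2 fold changes of DNMT1 siRNA over negative siRNA (x axis) with 95% intervals for the 10 markers and for 19 other macrophage and myeloid genes tested, sorted by size. Orange marks genes past both limits (C1qc and Lyz2 on the left, Ctss on the right), and dotted lines mark a fold change of 1.5.

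The markers were not even among the negative siRNA samples. For 7 of 10 genes replicate 1 lay at or below the highest DNMT1 siRNA sample. Replicates 2 and 3 both lay above every DNMT1 siRNA sample for 9 of 10, the exception being Cd68. Replicate 1 was singled out after the data were seen, and the shares of all tested genes with these orders were not computed. Summed over the 10 genes, the level was 18.0, 50.3 and 51.4 CPM (counts scaled to library size) with negative siRNA, and 14.1, 19.6 and 22.4 with DNMT1 siRNA.

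Counting error was smaller than this gap. C1qa had 53 reads in negative siRNA replicate 1, which is 23.2 to 40.5 normalized counts by an exact 95% Poisson interval. In replicate 2 it had 233 reads (141 to 183) and in replicate 3 it had 172 reads (115 to 155). For 9 of 10 markers, all but Fcgr3, the interval of replicate 1 lay below those of both other negative siRNA samples. These intervals cover counting error only.

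The SD of log2 CPM between negative siRNA samples had a median of 0.939 over the 10 markers and of 0.174 over all tested genes. Between DNMT1 siRNA samples it was 0.393 and 0.0982. The markers had low counts, at which counting error widens the SD, and all tested genes were not matched to them by count. Among the DNMT1 siRNA samples, replicate 1 was the lowest for all 10 markers. Set against the mean of DNMT1 siRNA, negative siRNA replicate 2 had 5.75 times as much C1qa and replicate 3 had 4.79 times, while replicate 1 had 1.11 times. For Lyz2 these ratios were 2.55, 3.28 and 1.24.

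Against negative siRNA replicate 1 alone, a comparison chosen after the data were seen, the log2 fold changes were -0.17 for C1qa, -0.29 for C1qb, -0.41 for C1qc and -0.32 for Lyz2, none past the limits in edgeR's test. Those of Mrc1 and Cx3cr1 were then positive, and Cd68 passed the limits as higher (0.80, adjusted p = 0.0101). In that fit the lone sample is assumed to vary like the DNMT1 siRNA samples. Without replicate 1, 6 of 10 markers were called lower, C1qa, C1qb, C1qc, Lyz2, Csf1r and Adgre1, with log2 fold changes between -2.51 for C1qc and -1.24 for Csf1r.

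**Figure D3:**
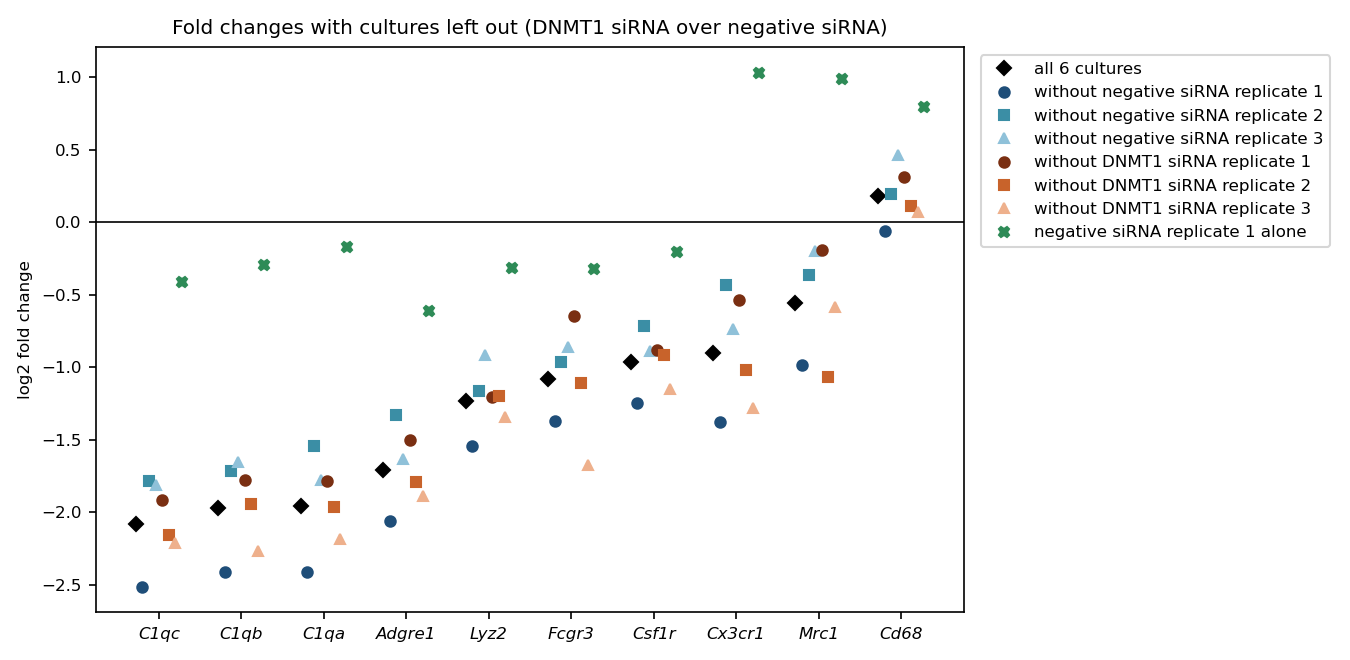
Log2 fold changes of the 10 markers (y axis) in the fit of all 6 samples (black), with 1 sample left out in turn (blue and brown), and with negative siRNA replicate 1 as the only negative siRNA sample (green). Values for C1qa, C1qb and C1qc stay below -1.5 with any 1 sample left out and lie between -0.41 and -0.17 against replicate 1 alone.

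Per length, in CPM per kilobase of exon, Lyz2 had the highest mean level with negative siRNA (7.39), followed by C1qa (4.80), Cd68 (3.28), C1qb (2.58) and C1qc (2.55). Csf1r followed at 1.16, Adgre1 at 0.557, Cx3cr1 at 0.492, Fcgr3 at 0.482 and Mrc1 at 0.277. The ranges of all neighbours in this order overlapped. With DNMT1 siRNA the order on the same scale began with Cd68 (3.72) and Lyz2 (3.14), which overlapped each other. C1qa (1.24), C1qb (0.657), C1qc (0.603) and Csf1r (0.593) came next, with no overlap between Lyz2 and C1qa and with overlap between all later neighbours down to Csf1r. The lowest levels were those of Cx3cr1 (0.264), Fcgr3 (0.231), Mrc1 (0.187) and Adgre1 (0.170), each below Csf1r in every sample.

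Of 22 other genes of macrophages and myeloid cells, 19 were tested. Ctss, for the protease cathepsin S of antigen-presenting cells, fell from 44.3, 77.2 and 103 to 22.8, 21.9 and 18.0 normalized counts, a log2 fold change of -1.82 (SE 0.356, edgeR adjusted p = 0.0163). It was the only 1 of the 19 past both limits, where 2.23% of all tested genes were called lower. No gene of the list was called higher in this test, against 4.26% of all. At an unadjusted p below 0.05, 1 was higher (Mertk) and 7 lower, against 14.9% higher and 14.3% lower over all tested genes. DESeq2 called 5 of the 19 lower and none higher, where it called 2.82% of all tested genes lower. In this list 17 of 19 log2 fold changes were negative, with a median of -0.96, and 3 of the 19 passed the filter on low counts only through the negative siRNA samples. Irf8, a transcription factor of this lineage, had a log2 fold change of 0.020. Between 1 and 9 of the list were called lower with 1 negative siRNA sample left out (9 without replicate 1), and 0 with any 1 DNMT1 siRNA sample left out. Mertk was called higher without negative siRNA replicate 3, and no gene of the list was with any other sample left out.

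Spi1, for PU.1, had 7.59, 27.6 and 31.9 normalized counts with negative siRNA and 1.34, 10.2 and 8.18 with DNMT1 siRNA (log2 fold change -1.76, edgeR adjusted p = 0.149). Mertk, a receptor for dying cells that was the most abundant gene of this list, had 1455, 1275 and 1795 and then 2093, 2283 and 2265 normalized counts, with a log2 fold change of 0.55 that passed the FDR limit but not the fold limit. Mertk, Spi1 and Irf8 are named here after their values were seen. Without Mertk, the summed level of the list was 22.1, 48.1 and 61.8 CPM with negative siRNA and 17.8, 22.0 and 28.9 CPM with DNMT1 siRNA. Over the whole list with Mertk it was 89.1, 106.8 and 144.5 CPM, and then 114.2, 127.1 and 133.2 CPM, without a fall. In the sum without Mertk, negative siRNA replicate 1 again lay within the range of DNMT1 siRNA, and in the sum with Mertk it lay below that range.

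Of 11 markers of resident or recruited subsets, 2 were tested, Cbr2 (log2 fold change 0.68, edgeR adjusted p = 0.215) and Folr2 (0.64, adjusted p = 0.217). Neither passed the limits by edgeR's tests or DESeq2, nor did either have an unadjusted p below 0.05. Cbr2 was called higher without negative siRNA replicate 3, Ccr2, then among 5 genes tested, without DNMT1 siRNA replicate 1, and both with no filter on low counts. Ccr2, the receptor of recruited monocytes, had 1 read in each negative siRNA library and 0, 6 and 8 reads with DNMT1 siRNA. Timd4 had at most 2 reads in any library and Lyve1 between 3 and 12, so that differences in them were not detectable at this depth. Of 4 Fc receptors beside Fcgr3, Fcgrt and Fcgr4 were tested, with log2 fold changes of -0.30 and 0.024, and neither passed the limits or had an unadjusted p below 0.05 in edgeR's test, nor did DESeq2 call any.

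Genes for ligands of these receptors were called in both directions. Csf1, the ligand of CSF1R, had 15501, 15003 and 19136 normalized counts with negative siRNA and 20313, 20542 and 20943 with DNMT1 siRNA, all above the negative siRNA samples (log2 fold change 0.32, edgeR adjusted p = 0.0747). Il34, the other ligand of CSF1R, had 23.9, 24.1 and 35.0 and then 17.4, 23.3 and 22.9 normalized counts (log2 fold change -0.38, adjusted p = 0.428). Cx3cl1, for fractalkine, the ligand of CX3CR1, rose from 425, 417 and 386 to 668, 593 and 584 normalized counts (log2 fold change 0.59, SE 0.0909, edgeR adjusted p = 0.00660). Ccl2, a chemokine that draws monocytes, fell from 788, 810 and 1146 to 628, 563 and 617 normalized counts (log2 fold change -0.60, SE 0.147, adjusted p = 0.0350). Of the 6 ligand genes, 1 was called higher and 1 lower, with a median log2 fold change of -0.035. Over all tested genes, 4.26% were called higher and 2.23% lower. None of the 6 was called without negative siRNA replicate 3 or without DNMT1 siRNA replicate 1, and 0 were called lower without DNMT1 siRNA replicate 2 or 3.

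In the complement pathway, in which C1q acts, 17 of 19 listed genes were tested. Of these, 2 were called higher and 2 lower, beside 4.26% higher and 2.23% lower of all tested genes. The median log2 fold change was -0.046. C3, the central component, fell from 574, 1343 and 1458 to 542, 452 and 517 normalized counts (log2 fold change -1.16, SE 0.307, edgeR adjusted p = 0.0447). C5ar1, the receptor for C5a on myeloid cells, had 18.7, 49.6 and 74.7 normalized counts with negative siRNA and 6.70, 8.75 and 13.1 with DNMT1 siRNA (log2 fold change -2.32, SE 0.577, adjusted p = 0.0369). With 5, 6 and 8 reads in the DNMT1 siRNA libraries, C5ar1 passed the filter on low counts only through the negative siRNA samples. In both genes negative siRNA replicate 1 was the sample nearest to the DNMT1 siRNA samples, as for C1qc.

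Cfi, the protease that inactivates C3b, rose from 285, 351 and 295 to 497, 515 and 496 normalized counts (log2 fold change 0.70, SE 0.105, edgeR adjusted p = 0.00617). Cd55, which takes apart C3 convertases on cell surfaces, rose from 629, 287 and 600 to 1007, 1099 and 1091 (log2 fold change 1.08, SE 0.253, adjusted p = 0.0312). The partners of C1q in the C1 complex did not pass the limits, C1ra with a log2 fold change of 0.016 and C1s1 with 0.50. These partners are named after their values were seen. Neither C3 nor C5ar1 was called without negative siRNA replicate 3 or without any 1 DNMT1 siRNA sample, and C3 was not called without negative siRNA replicate 2. Cfi was called higher with any 1 sample left out. Cd55 was not called without any 1 DNMT1 siRNA sample, and C1s1 was called higher without negative siRNA replicate 3, which made 3 of the 17 higher.

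**Figure D4:**
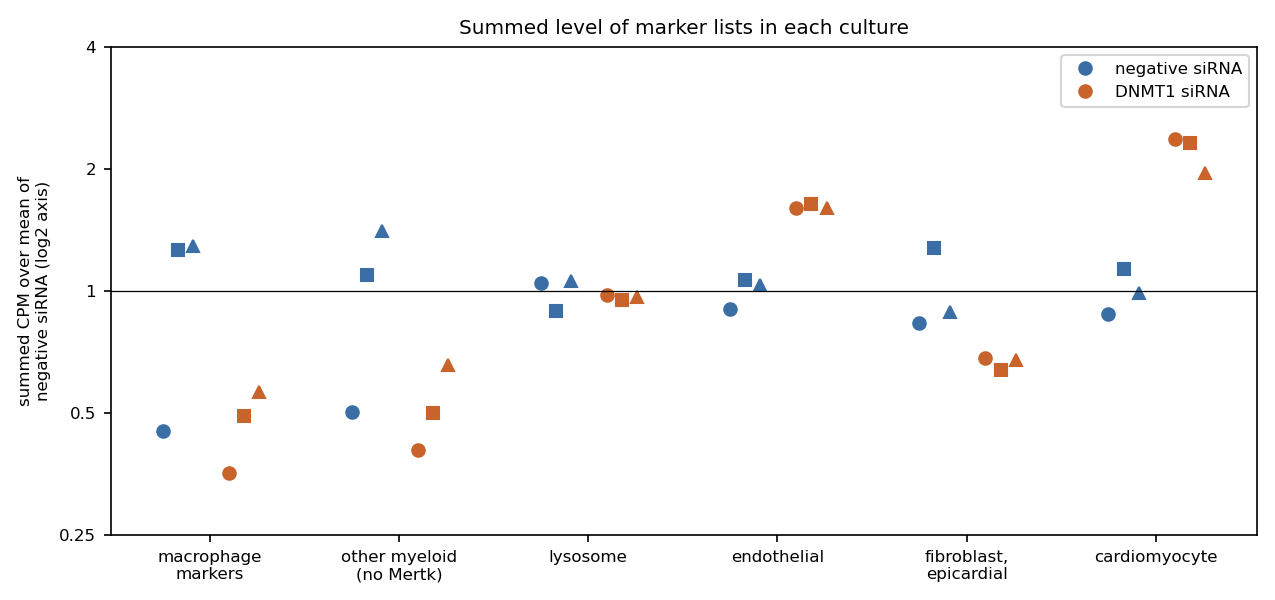
Summed CPM of 6 gene lists in each sample, over the mean of the 3 negative siRNA samples (y axis, log2 scale; circle, square and triangle are replicates 1, 2 and 3). Negative siRNA replicate 1 is within the DNMT1 siRNA range for the macrophage markers and for the other myeloid genes, plotted without Mertk. It is outside that range for the endothelial, fibroblast and cardiomyocyte lists.

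Of the lists for other cell types, the cardiomyocyte and endothelial lists rose in summed level with treatment. The fibroblast and epicardial list fell in summed level, as the macrophage markers did. All 10 cardiomyocyte markers were tested, and 8 were called higher with DNMT1 siRNA, against 4.26% of all tested genes. Among the 8 were Myh6, Tnnt2, Ttn and Actn2. The summed level of the 10 was 1927 to 2491 CPM with negative siRNA and 4288 to 5191 CPM with DNMT1 siRNA. Of 14 endothelial genes tested, Npr3, Kdr, Emcn and Prox1 were called higher, and the summed level of the list was 346 to 409 CPM and 615 to 629 CPM. The log2 fold change was negative for 1 of the 14, Tek (-0.35, edgeR adjusted p = 0.0373), which passed the FDR limit but not the fold limit. Of 10 fibroblast and epicardial markers, Col1a1, Col1a2 and Dcn were called lower, against 2.23% of all tested genes. The summed level of these 10 was 36765 to 56275 CPM and 28148 to 30019 CPM. In this list 8 of 10 log2 fold changes were negative, with a median of -0.41. All 3 DNMT1 siRNA samples lay below all negative siRNA samples for 6 of the 10, and for 17.7% of all tested genes. With 1 sample left out, 5 to 10 cardiomyocyte, 1 to 10 endothelial and 0 to 3 fibroblast and epicardial markers were called in these directions.

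These samples labelled as cardiomyocytes thus held RNA of marker genes of other cell types, fibroblast collagens in large amounts, under both treatments. The paper cites earlier flow cytometry of its authors, by which nearly all of the magnetically sorted cells were cardiomyocytes. Shares of cells were not measured here. Of 10 red cell markers, 1 was tested (Alas2, log2 fold change 1.23, edgeR adjusted p = 0.0860), and the 7 globin genes had at most 4 reads each in any library. Of 15 neutrophil, mast cell and lymphocyte markers, 1 was tested (Itga2b, log2 fold change -0.52, adjusted p = 0.257), and 8 had at most 3 reads in any library. The share of uniquely mapped reads outside annotated exons was 14.6% to 17.5% with negative siRNA and 24.4% to 32.0% with DNMT1 siRNA. Vcam1, the antigen of the sort, had a log2 fold change of -0.26 (edgeR adjusted p = 0.148). The part of cell composition, of the share outside exons and of the smaller DNMT1 siRNA libraries in the fall of C1qc and Lyz2 was not tested. In a random thinning of the negative siRNA counts to the depth of DNMT1 siRNA, both genes still passed the limits. Log2 fold changes were -2.02 for C1qc and -1.28 for Lyz2 (edgeR adjusted p = 0.0335 and 0.0409). Thinning evens out depth only, and no conclusion on these causes is drawn from it.

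Of 11 lysosome genes that all cells use, none passed the limits in edgeR's tests or DESeq2, and 1 had an unadjusted p below 0.05 (Ctsl, log2 fold change -0.20, edgeR adjusted p = 0.136). Their log2 fold changes were negative for 8 of 11, with a median of -0.060. Their summed level was 4148 to 4932 CPM with negative siRNA and 4411 to 4547 CPM with DNMT1 siRNA. The 3 with the highest average log2 CPM over all samples, Ctsd, Psap and Lamp1, had log2 fold changes of 0.12, -0.030 and 0.058, beside 0.18 for Cd68.

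The markers followed each other across the 6 samples, apart from Cd68. Pearson's r between the log2 CPM of a marker and the mean of the other 9 was 0.978 for C1qa and C1qb, 0.967 for C1qc, 0.961 for Csf1r, 0.953 for Adgre1, 0.931 for Lyz2, 0.905 for Cx3cr1, 0.883 for Fcgr3, 0.818 for Mrc1 and 0.425 for Cd68. These describe 6 libraries that share 2 treatments, and are no test. Among all 15470 genes, the 10 outside the list with the highest r to the mean of the markers were Zfp688, Invs, Ppt2, Zfp217, Msln, Ip6k1, R3hdm4, Angel1, Ahcyl1 and Pabpc4 (r of 0.979 to 0.998). None of these is in the myeloid list, and none passed the limits, with log2 fold changes from -0.39 to -0.048. The myeloid genes nearest in this order were Siglec1 at rank 13 (r = 0.978), Itgam at rank 42 (0.961), Spi1 at rank 47 (0.958) and Cd14 at rank 51 (0.956), named after their values were seen.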

How the data were processed

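RNA-Seq counts of 6 samples, 3 per siRNA treatment, were used. The authors cleaned reads with FastQC, mapped them to mm10 with TopHat2 and deposited raw counts per Ensembl gene from HTSeq, 1 file per sample, without normalization. Versions and the strand setting are not given in the sources used here. Counts were tested with edgeR 4.0.16 in R 4.3.3 (quasi-likelihood F test, TMM, filterByExpr with a minimum count of 10 and total of 15, no block), with Benjamini-Hochberg adjustment over 15470 genes. Called genes had an FDR below 0.05 and a fold change above 1.5. SE is the absolute log2 fold change over the square root of F. DESeq2 1.42.0 was an alternative.

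Groups came from sample titles. Nothing says that the replicates are separate litters, so p-values measure the spread between these samples. Positions and exon lengths are from GENCODE M21 (GRCm38), which held 42462 of the 43629 genes. All 10 markers passed the filter in all 3 negative siRNA samples, Fcgr3 in 1 and Adgre1 in 2 of the DNMT1 siRNA samples, and the other 8 in all. The markers and gene lists were chosen with earlier results of these data known. Other lists were named by their called genes, the 4 most abundant where more were called, or else up to 3 of the most abundant genes tested. Tests on simulated data gave unbiased fold changes and even null p-values, missed changes near the fold limit more often than large ones, and made more false calls than the FDR limit allows where spread differed widely between genes. Exact permutation tests used log2 (CPM + 0.1). Log2 CPM had a prior count of 2.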

Additional observations from a re-analysis of the deposited data

How the results depend on the processing

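Over all genes, 659 were called higher and 345 lower. With no filter there were 994 and 701, the median log2 fold change of all genes then being 0.113. With glmTreat there were 140 and 36. With negative siRNA replicate 1 alone, an alternative added after seeing the data, there were 1188 and 549. Leaving out 1 sample gave 255 to 823 higher and 112 to 472 lower. Of the 10 markers, 2 were called lower. There were 7 with no filter, 6 with DESeq2, 6 with edgeR's exact test, 0 with glmTreat, 0 with negative siRNA replicate 1 alone (where 1, Cd68, was called higher), and 0 to 6 with 1 sample left out, the 6 without negative siRNA replicate 1. No marker was called higher with 1 sample left out (0 in each). With RLE scaling there were 2, and 3 with library size alone. With at least 10 counts in every sample only 5 markers were tested, and 2 of them were called lower. With thinned counts 9 were tested, of which 2 were called lower. Of all genes tested in each fit, 2.21% were called lower with no filter, 2.82% with DESeq2 and 2.97% with the exact test. The share was 0.233% with glmTreat, 2.81% with library size alone, and 0.688% to 3.1% with 1 sample left out. It was 2.28% with RLE scaling, 2.27% with at least 10 counts in every sample and 2.41% with thinned counts. The log2 fold change of Cd68 ran from -0.058, without negative siRNA replicate 1, to 0.462 with 1 sample left out, and those of Mrc1 and Cx3cr1 were 0.99 and 1.03 with negative siRNA replicate 1 alone. The cause of these changes was not tested.

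With the replicate block, 5 of 10 markers were called lower, C1qa, C1qb, C1qc, Lyz2 and Adgre1, as were 1.84% of all tested genes. Whether the numbers pair the samples is not known. Correlations of deviations from the group means were 0.00637, -0.0208 and 0.0274 for the same-numbered pairs, and not every sample correlated best with its own number. With 3 samples per treatment these correlations cannot decide it. For the markers, replicate 1 was the lowest sample of both treatments in 10 of 10. Reads of 2 to 76 per marker and DNMT1 siRNA library limit what could be detected.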
